A study of Mus musculus with 30 samples.

Results

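The 10 genes described here are the Notch receptors NOTCH1, NOTCH2, NOTCH3 and NOTCH4, the ligands DLL4, JAG1 and JAG2, and the target genes HES1, HEY1 and HEYL, of 21073 genes in the table. They were chosen by symbol, with the levels and the calls of these genes in these same mice known, so their levels and fold changes below are a description and their calls support nothing. RNA-Seq was run on the EDL (extensor digitorum longus, a fast muscle of the lower leg) of wild-type female SJL/J mice, 5 per group in 6 groups. Experimental autoimmune encephalomyelitis (EAE), a model of multiple sclerosis, was induced with the myelin peptide [Ser140]-PLP139-151 in complete Freund's adjuvant (CFA), without pertussis toxin. The OVA groups received ovalbumin in the same adjuvant and the Ctrl groups were left unimmunized, so OVA separates the adjuvant from the myelin peptide. Muscles were taken on day 14, at the peak of disease, and on day 40, in remission. The age of the mice is not given in the sources used here.

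Notch is a receptor read by direct contact between cells. A ligand of the Delta or Jagged family on one cell pulls on a Notch receptor on its neighbour, ADAM proteases and γ-secretase then cut the receptor, and the freed intracellular part joins RBPJ on DNA and switches on HES and HEY repressors. In skeletal muscle the pathway keeps satellite cells, the stem cells of the fibre, quiescent. In vessels DLL4 and NOTCH4 are made mainly by endothelial cells, and NOTCH3 and HEYL mainly by the pericytes and smooth muscle around them.

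NOTCH4 and DLL4 had the lowest log2 fold changes of the group in EAE mice on day 14 against both controls, and their upstream sequences are shown for this reason. The set of RefSeq promoters used here held 7 of the 10 genes, the receptors and ligands, and none of the targets HES1, HEY1 and HEYL. In the 250 bases before the start of each of the 7, neither the core of the RBPJ site (TGGGAA, or TTCCCA on the other strand), nor an E-box (CACGTG), a site of basic helix-loop-helix proteins, nor a TATA box (TATAAA) was found, against 21.6%, 6.02% and 12.4% of all 32851 promoters. The motif AGGAAG, of a type that factors of the ETS family can bind, was searched in the same way on both strands and occurs in 29.5% of promoters. NOTCH4 held 3 matches, which begin 245, 197 and 73 bases before the start, and the other 6 promoters held none. Capitals mark these matches in the sequences of the sense strand (GRCm38.p6, NOTCH4 at chr17:34564045-34564294 and DLL4 at chr2:119325534-119325783, both on the plus strand).
NOTCH4: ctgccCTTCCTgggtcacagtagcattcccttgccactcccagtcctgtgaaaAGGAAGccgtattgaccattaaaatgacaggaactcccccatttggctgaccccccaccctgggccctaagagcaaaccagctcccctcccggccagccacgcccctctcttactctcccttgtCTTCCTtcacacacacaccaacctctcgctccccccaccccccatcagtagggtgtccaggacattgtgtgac
DLL4: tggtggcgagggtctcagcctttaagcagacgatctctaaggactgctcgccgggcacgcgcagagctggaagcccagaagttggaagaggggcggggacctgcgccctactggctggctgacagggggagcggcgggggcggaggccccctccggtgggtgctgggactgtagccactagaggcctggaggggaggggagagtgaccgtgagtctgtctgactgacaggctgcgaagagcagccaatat
A match is a stretch of letters and not a shown binding site.

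Levels are given in RPKM, the reads of a gene scaled to the length of its exons and to the mapped reads of the library, which allows levels to be compared between genes. HES1 had the highest mean over the 30 mice, 17.2 RPKM, followed by JAG2 with 10.2 RPKM and NOTCH3 with 5.91 RPKM. DLL4 (3.14 RPKM), JAG1 (3.08 RPKM), HEYL (2.97 RPKM), HEY1 (2.86 RPKM) and NOTCH4 (2.76 RPKM) lay close together, and NOTCH2 (2.27 RPKM) and NOTCH1 (1.71 RPKM) were lowest. Estimated from the smallest steps between values, the libraries were scaled to 18.1M to 31.7M reads (median 21.6M). Whether these were all mapped reads or only those counted in genes was not tested. The deepest library, EAE mouse 3 of day 14, stood apart from the next at 24.8M. The fold changes of NOTCH4 and DLL4 on day 14 and their changes between days are given with and without it. Unless stated, other values include it. At these depths DLL4 was read 75 to 397 times per mouse and NOTCH4 155 to 674 times, so counting error is larger for them than for JAG2 (759 to 2151 reads).

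Fold changes below are differences of mean log2(RPKM + 0.1), with the standard error of a limma model of the 15 mice of a day. A gene was tested where a compared group had a mean above 3 RPKM, and called where it passed both an adjusted p of 0.05 and a fold of 1.5. Of the 10 genes, 6 were tested in each EAE comparison of day 14, 7 in OVA vs. Ctrl on that day and 8 in each comparison of day 40. NOTCH1 and NOTCH2 never reached 3 RPKM as a group mean, JAG1 did not on day 14, HEY1 did not in EAE vs. Ctrl and HEYL did not in EAE vs. OVA on that day. Genes that were not tested are given by their levels. Where groups are said to overlap or not, the share of all genes that did so was not counted, so such a separation is a description.

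**Figure D1:**
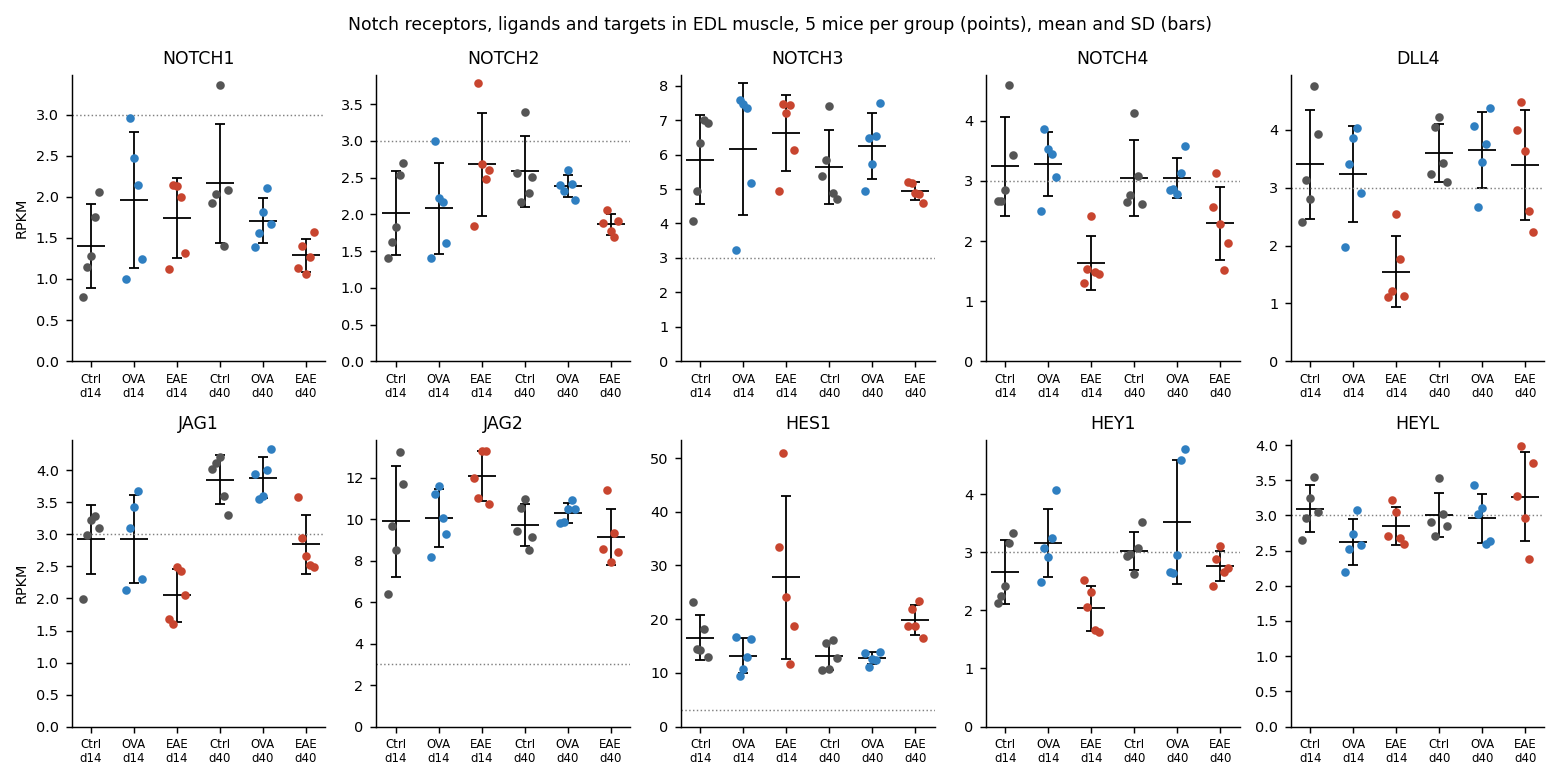
RPKM of the 10 genes in each mouse (points; 5 per group), with the mean and SD of each group (bars) for Ctrl, OVA and EAE on days 14 and 40; the dotted line marks the filter of 3 RPKM. On day 14 the EAE mice lie below every control mouse in NOTCH4, and on day 40 they lie above every control mouse in HES1 and below every one in NOTCH2.

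On day 14, EAE mice had 0.505 times the mean NOTCH4 level of Ctrl and 0.499 times that of OVA mice, and no EAE mouse reached the level of any control mouse. NOTCH4 is a Notch receptor made mostly by endothelium. It was 2.66, 2.67, 2.85, 4.60 and 3.44 RPKM in Ctrl mice, 2.49, 3.87, 3.53, 3.45 and 3.06 RPKM in OVA mice, and 1.29, 1.54, 2.41, 1.49 and 1.45 RPKM in EAE mice. The means were 3.24 ± 0.82 in Ctrl, 3.28 ± 0.52 in OVA and 1.64 ± 0.44 in EAE (SD, n = 5 each). NOTCH4 was called lower in both comparisons, with log2 fold changes of -0.95 (SE 0.19) against Ctrl and -0.98 (SE 0.19) against OVA. The highest EAE value came from mouse 3, the deepest library, and without it the fold changes were -1.09 and -1.12, both called. Without Ctrl mouse 4, whose 4.60 RPKM was the highest of all 30 mice, the Ctrl mean fell under 3 RPKM and NOTCH4 was not tested against Ctrl, with a fold change of -0.82.

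DLL4, the Delta ligand of endothelial tip cells and arteries, was lower by a similar amount on day 14. Ctrl mice had 2.41, 3.13, 2.80, 4.76 and 3.92 RPKM and OVA mice 1.97, 3.41, 3.86, 4.04 and 2.91 RPKM. In EAE mice DLL4 was 1.10, 1.22, 2.54, 1.76 and 1.13 RPKM. Here 4 of the 5 EAE mice lay below every Ctrl and OVA mouse, and mouse 3, the deepest library, overlapped with both groups. The log2 fold change was -1.12 (SE 0.25) against Ctrl and -1.04 (SE 0.25) against OVA, called in both, and -1.30 and -1.23 without mouse 3.

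JAG1, a Jagged ligand of endothelium, smooth muscle and other cells, had means of 2.92 ± 0.53 RPKM in Ctrl, 2.93 ± 0.68 RPKM in OVA and 2.05 ± 0.41 RPKM in EAE mice on day 14 (SD, n = 5). All 3 means were under the filter, so JAG1 was not tested, and its values ran from 1.59 to 2.50 RPKM in EAE and from 1.99 to 3.29 RPKM in Ctrl mice. The groups overlapped, and the log2 difference was -0.49 against Ctrl and -0.48 against OVA. JAG2, the other Jagged ligand, was the most abundant ligand, with 12.1 ± 1.21 RPKM in EAE, 9.90 ± 2.68 RPKM in Ctrl and 10.1 ± 1.40 RPKM in OVA mice. Its log2 fold changes of 0.32 (SE 0.16) and 0.27 (SE 0.16) were not called, and the groups overlapped.

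Among the other receptors, NOTCH3, the receptor of vascular mural cells, was 4.93, 7.47, 7.20, 7.44 and 6.13 RPKM in EAE, within or just above the 4.06 to 7.00 RPKM of Ctrl mice. Its log2 fold change was 0.19 (SE 0.22) against Ctrl and 0.16 (SE 0.22) against OVA, and it was not called. NOTCH2, which satellite cells use, was 1.84 to 3.79 RPKM in EAE against 1.40 to 2.70 RPKM in Ctrl and 1.41 to 3.00 RPKM in OVA mice. NOTCH1, also made by satellite cells and endothelium, was 1.12 to 2.15 RPKM in EAE against 0.78 to 2.06 RPKM in Ctrl and 1.01 to 2.96 RPKM in OVA mice. Both overlapped with the controls, so of the 4 receptors only NOTCH4 was set apart from both control groups on day 14.

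The targets went different ways on day 14. HES1, a repressor that many signals besides Notch induce, was 33.5, 51.0, 24.2, 11.7 and 18.7 RPKM in EAE mice. In Ctrl mice it was 23.1, 14.5, 14.2, 18.1 and 13.0 RPKM, and in OVA mice 16.6, 9.40, 10.7, 13.0 and 16.3 RPKM. The EAE mice were spread widely, with 3 of 5 above every Ctrl mouse, 4 of 5 above every OVA mouse and 1 below every Ctrl mouse. HES1 was called higher against OVA, with a log2 fold change of 0.93 (SE 0.30), and was not called against Ctrl, with 0.60 (SE 0.30). The call against OVA was lost without EAE mouse 1, EAE mouse 2, OVA mouse 2 or OVA mouse 3, with fold changes down to 0.67.

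HEY1, a target and repressor of vessels and satellite cells, went the other way. It was 2.52, 2.06, 2.31, 1.66 and 1.63 RPKM in EAE and 2.48, 3.07, 2.92, 3.24 and 4.08 RPKM in OVA mice, with 4 of 5 EAE mice below every OVA mouse. Its log2 fold change against OVA was -0.61 (SE 0.17), called lower, and the call was lost without EAE mouse 4, EAE mouse 5 or OVA mouse 5, and with a pseudocount of 1 (-0.45). Against Ctrl, at 2.13 to 3.33 RPKM, HEY1 was not tested, and the log2 difference was -0.37. HEYL, in vessels a target made mainly by mural cells, stayed at 2.59 to 3.22 RPKM in EAE, 2.65 to 3.55 RPKM in Ctrl and 2.20 to 3.07 RPKM in OVA mice, and was not called.

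Counted together, 2 of the 6 tested genes were called lower and 0 higher in EAE vs. Ctrl on day 14. Of all 8771 genes tested in this comparison, 11.8% were called lower and 14.6% higher. In EAE vs. OVA, 3 of 6 were called lower (NOTCH4, DLL4 and HEY1) and 1 higher (HES1), beside 9.28% lower and 11% higher of 8674 genes. The genes were chosen with these calls known, so nothing is read from the counts. Limma found 0 genes of the group higher in EAE vs. Ctrl also at an unadjusted p below 0.05, whereas HES1 was called higher with all 30 mice in 1 model (log2 fold change 0.60) or without EAE mouse 4 (0.87). The 2 comparisons share the EAE mice.

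**Figure D2:**
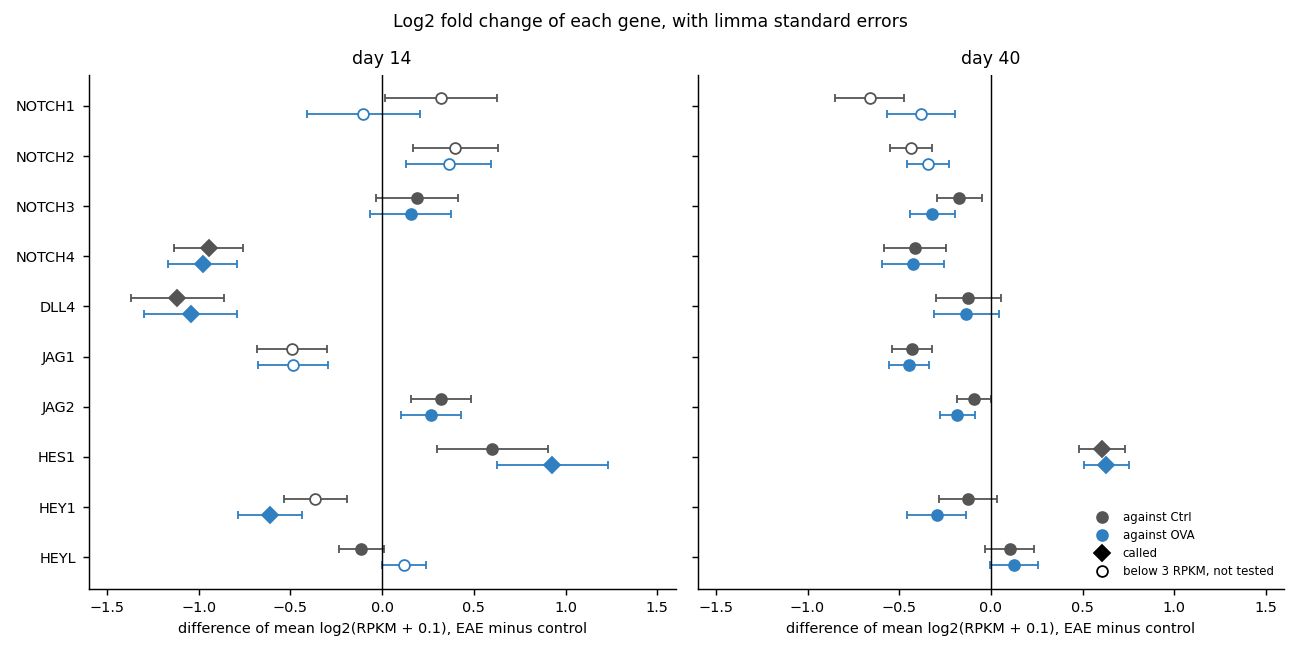
Difference of mean log2(RPKM + 0.1) between EAE and control mice for each gene on days 14 and 40, against Ctrl (grey) and OVA (blue), with limma standard errors; diamonds were called and open circles were below the filter of 3 RPKM, with the error from a fit without the filter. NOTCH4 and DLL4 are lowest on day 14, near -1 against both controls, and HES1 is highest on day 40, near 0.6.

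No gene of the group was called after OVA immunization. In OVA vs. Ctrl 0 of 7 tested genes were called on day 14 and 0 of 8 on day 40 by limma, and none had an unadjusted p below 0.05. Of all genes tested, 0.142% were called in either direction on day 14 and 0% on day 40. A limma p below 0.05 without adjustment was found for 821 of 8471 and 272 of 8706 genes. NOTCH4 differed by 0.03 (SE 0.19) on day 14 and by 0.01 (SE 0.17) on day 40 on the log2 scale, and DLL4 by -0.07 (SE 0.25) and 0.01 (SE 0.18). HES1 showed the largest difference of the tested genes, -0.33 (SE 0.30) on day 14, which was about its standard error. NOTCH1, which was not tested, was 1.40 times as high in OVA as in Ctrl mice on day 14, with 3 of 5 OVA mice above every Ctrl mouse, and HEYL had 3 of 5 OVA mice below every Ctrl mouse.

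By day 40, DLL4 in EAE mice was at the level of the controls. It was 4.00, 4.48, 3.64, 2.59 and 2.24 RPKM in EAE mice, with means of 3.39 ± 0.95 RPKM in EAE, 3.61 ± 0.50 RPKM in Ctrl and 3.66 ± 0.66 RPKM in OVA mice (SD, n = 5). The log2 fold change was -0.12 (SE 0.18) against Ctrl and -0.13 (SE 0.18) against OVA. The difference between the days, fitted as an interaction over all 30 mice and called by its adjusted p without a limit on the fold, was 0.99 (SE 0.32) against Ctrl and 0.91 (SE 0.32) against OVA, and both were called. DLL4 was the 1 gene called of 8 tested in each. NOTCH1 and NOTCH2, under the filter and not tested, went the other way. Their effect of EAE changed by -0.98 and -0.84 against Ctrl, and by -0.28 and -0.70 against OVA. Without the filter both were called against Ctrl and neither against OVA. Of all 9013 and 8935 genes tested, 16.5% and 11.1% had an effect called higher on day 40 than on day 14. A further 2895 and 2145 genes had an effect called lower. The call against OVA was lost in 6 of 20 fits with 1 mouse left out, and the call against Ctrl in none of 20. Without EAE mouse 3 of day 14, the deepest library, the change of DLL4 was 1.18 against Ctrl and 1.10 against OVA, called in both.

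NOTCH4 on day 40 was 2.57, 3.14, 2.28, 1.51 and 1.97 RPKM in EAE mice, and 4 of the 5 lay below every Ctrl and every OVA mouse (2.62 to 4.14 RPKM and 2.79 to 3.58 RPKM). With log2 fold changes of -0.42 (SE 0.17) against Ctrl and -0.43 (SE 0.17) against OVA, NOTCH4 was not called. Its change between days, 0.53 (SE 0.25) and 0.55 (SE 0.25), was not called either. Without EAE mouse 3 of day 14, the deepest library, it was 0.67 and 0.69 and was called against both. It was also called without EAE mouse 4 of day 40 (0.66 and 0.68) and, against Ctrl, without Ctrl mouse 3 of day 40 (0.64). With median-of-ratios scaling it was 0.65 and 0.66 and was called. Under that scaling the median change of all genes between the days moved from -0.15 to -0.02 against Ctrl and from -0.16 to -0.04 against OVA, and the all-gene calls moved from 1487 higher and 2895 lower to 1922 and 2253 against Ctrl, and from 993 and 2145 to 1324 and 1441 against OVA.

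HES1 was the gene called on day 40, and every EAE mouse lay above every control mouse. It was 18.7, 21.9, 18.7, 23.4 and 16.5 RPKM in EAE, 10.5, 15.5, 10.7, 16.1 and 12.7 RPKM in Ctrl, and 13.7, 11.2, 12.5, 12.4 and 13.9 RPKM in OVA mice. The spread within EAE was far narrower than on day 14, with a mean of 19.8 ± 2.80 RPKM against 27.8 ± 15.2 RPKM (SD, n = 5). The log2 fold change was 0.61 (SE 0.12) against Ctrl and 0.63 (SE 0.12) against OVA, just above the fold threshold, and both were called. The calls were lost in 6 and 8 of 10 fits with 1 mouse left out, while the fold changes stayed between 0.53 and 0.69.

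HES1 was the 1 gene of 8 tested that was called higher in each EAE comparison of day 40, where 0 were called lower. Among all genes, 0.069% were called higher and 0.391% lower against Ctrl, and 0.0349% and 0.174% against OVA. With median-of-ratios scaling the calls among all genes went from 6 higher and 34 lower to 10 and 11 against Ctrl, and from 3 and 15 to 0 and 2 against OVA, where HES1 was then not called. At an unadjusted p below 0.05, 2 genes of the group were lower against Ctrl and 3 against OVA. Among all genes, 2423 of 8691 and 1500 of 8598 had such a limma p in either direction.

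JAG1 and NOTCH2 were lower in EAE mice on day 40 without being called. JAG1 was 3.59, 2.94, 2.67, 2.53 and 2.49 RPKM in EAE, 4.03, 4.12, 4.21, 3.61 and 3.31 RPKM in Ctrl, and 3.95, 3.55, 3.60, 4.01 and 4.34 RPKM in OVA mice. Only EAE mouse 1 overlapped with the controls. The log2 fold change of -0.43 (SE 0.11) against Ctrl passed the adjusted p but not the fold threshold, and that of -0.45 (SE 0.11) against OVA passed neither. NOTCH2 was 1.89, 2.06, 1.77, 1.70 and 1.91 RPKM in EAE mice, below all of the 2.17 to 3.40 RPKM in Ctrl and the 2.20 to 2.61 RPKM in OVA mice. It was under the filter and so was not tested, and its log2 difference was -0.44 against Ctrl and -0.34 against OVA.

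None of the other genes was called on day 40. NOTCH1, which was not tested, was 1.07 to 1.57 RPKM in EAE against 1.40 to 3.36 RPKM in Ctrl and 1.39 to 2.11 RPKM in OVA mice, with 4 of 5 EAE mice below every Ctrl mouse. Its log2 difference was -0.66 against Ctrl, the largest in size of the 10 genes on day 40, and -0.38 against OVA. NOTCH3 (4.58 to 5.20 RPKM in EAE), JAG2 (7.94 to 11.4 RPKM), HEY1 (2.43 to 3.11 RPKM) and HEYL (2.38 to 3.99 RPKM) overlapped with both control groups. The log2 fold changes of these 4 genes ran from -0.32 to 0.12.

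Across the 6 groups, each of the 10 genes overlapped in range between groups that were next to each other in the order of means. NOTCH4 was lowest in EAE on day 14, then in EAE on day 40, and had its 4 control groups between 3.05 and 3.28 RPKM. DLL4 and HEY1 were lowest in EAE on day 14, and JAG1 was lowest in EAE on day 14 and next lowest in EAE on day 40. HES1 was highest in EAE on day 14 and next in EAE on day 40. The days themselves were not compared by a test, since the time after immunization and any difference in handling between the days cannot be told apart. JAG1 in unimmunized mice was 1.99 to 3.29 RPKM on day 14 and 3.31 to 4.21 RPKM on day 40, the only one of 30 pairs of a gene and a treatment that did not overlap between the days. How many of all genes were separate between the days was not counted.

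Some markers of endothelium, the cells that make DLL4 and NOTCH4, were also lower in EAE mice on day 14. In whole muscle, fewer cells of a type and less RNA per cell cannot be told apart. All 12 markers were above 3 RPKM in every group and none was at 0. Their summed level was 144 to 193 RPKM in EAE mice (median 153), 171 to 229 RPKM in Ctrl (median 212) and 161 to 239 RPKM in OVA mice (median 215). Of the 12, 4 were called lower against Ctrl (EGFL7, KDR, EMCN and CLDN5) and 3 against OVA, beside the 11.8% and 9.28% of all genes, and 0 were called higher. The median log2 fold change of the list was -0.34 and -0.31, against 0.11 over all genes. The 8 markers not called against Ctrl include the pan-endothelial PECAM1 (-0.12, SE 0.15), CDH5 (-0.05, SE 0.33) and ERG (-0.07, SE 0.26), and FLT1 (0.34, SE 0.22) and TEK (0.08, SE 0.19) lay on the higher side. KDR, the main VEGF receptor, was 10.6 ± 2.41 RPKM in EAE and 17.6 ± 3.08 RPKM in Ctrl mice (SD, n = 5, log2 fold change -0.74, SE 0.22, limma adjusted p = 0.014).

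NOTCH4 and DLL4 were also lower relative to these markers. On the log2 scale, NOTCH4 minus the mean of the 12 markers was -2.81 to -2.48 in EAE mice of day 14, -2.41 to -1.71 in Ctrl and -2.30 to -2.06 in OVA mice, so the groups did not overlap. DLL4 minus the markers was -3.12 to -2.40 in EAE, -2.44 to -1.66 in Ctrl and -2.38 to -1.92 in OVA mice, and here only EAE mouse 3 overlapped with Ctrl and no EAE mouse with OVA. JAG1 (mean -2.41 in EAE, -2.23 in Ctrl and -2.32 in OVA) and HEY1 (-2.42, -2.36 and -2.20) overlapped on this scale. A list of 7 arterial markers was not used for this scale, so levels relative to arterial cells were not tested. Of these 7, 5 were tested against Ctrl and 4 against OVA on day 14. All of the tested ones lay on the lower side and 0 were called, with median log2 fold changes of -0.19 and -0.43. On day 40, 0 of the 12 endothelial markers were called in either EAE comparison by limma. At an unadjusted p below 0.05, 7 differed against Ctrl and 6 against OVA, beside 2423 of 8691 and 1500 of 8598 of all genes. In each comparison 11 of the 12 lay on the lower side and 1, CLDN5, on the higher. The median log2 fold change of the list was -0.25 against Ctrl and -0.26 against OVA, beside -0.05 and -0.04 over all genes. The summed level of the 12 markers was 172 to 214 RPKM in EAE, 185 to 244 RPKM in Ctrl and 197 to 247 RPKM in OVA mice.

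**Figure D3:**
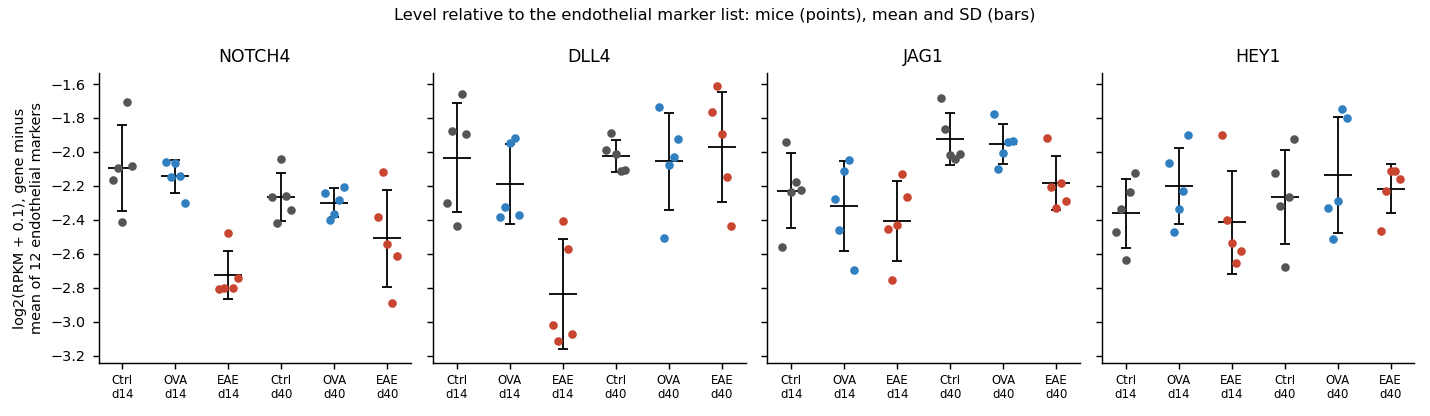
Difference between log2(RPKM + 0.1) of a gene and the mean of 12 endothelial markers in each mouse (points; 5 per group), with mean and SD (bars), for NOTCH4, DLL4, JAG1 and HEY1. The NOTCH4 points of EAE mice on day 14 sit between -2.81 and -2.48, below all Ctrl and OVA mice of that day, whereas JAG1 and HEY1 overlap.

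Markers of other cell types moved on day 14 as well, and their part in the levels of the Notch genes was not tested. Of the 8 tested markers of mural cells, which make NOTCH3 and HEYL, 1 was called higher and 1 lower against Ctrl, and 0 higher and 2 lower against OVA (median log2 fold changes 0.05 and -0.30), with a summed level of 170 to 197 RPKM in EAE against 144 to 205 RPKM in Ctrl and 206 to 310 RPKM in OVA mice. Of the 9 satellite cell markers, 5 were tested and 3 were called higher against both controls (CDH15, SDC4 and ITGA7, of which the last is also made by the fibre), while CHODL (-0.30 against Ctrl and -0.12 against OVA) and VCAM1 (-0.37 and -0.46) lay on the lower side and were not called. Most of the summed level is that of SDC4 and ITGA7. The sum was 99.1 to 132 RPKM in EAE, 65.9 to 78.6 RPKM in Ctrl and 64.6 to 79.7 RPKM in OVA mice. Fibro-adipogenic progenitor markers, 6 of 7 called lower against Ctrl, summed to 352 to 560 RPKM in EAE and 797 to 890 RPKM in Ctrl mice. Macrophage markers, 5 of 8 called lower, summed to 70.3 to 126 RPKM in EAE and 134 to 216 RPKM in Ctrl mice. Neutrophil markers were called higher in 5 of 5 tested against Ctrl (median log2 fold change 3.72) and in 1 of 5 against OVA (-0.86), were called higher in 5 of 5 in OVA vs. Ctrl (4.57), and summed to 218 to 403 RPKM in EAE, 3.79 to 10.7 RPKM in Ctrl and 68.6 to 236 RPKM in OVA mice. Erythrocyte markers were called lower in 4 of 4 tested against both controls (-2.36 and -3.55), and summed to 26.5 to 189 RPKM in EAE, 189 to 684 RPKM in Ctrl and 475 to 1586 RPKM in OVA mice. Markers of fast fibres, the cells of the EDL, summed to 60260 RPKM or more in every mouse. On day 14 the sum was lower in EAE (up to 71490 RPKM) than in every Ctrl (from 80770 RPKM) and OVA mouse (from 73480 RPKM), with 1 of 8 called lower (PVALB, against both controls).

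The rest of the pathway was described from lists of 68 other genes, all in the table. On day 14, 47 were tested in EAE vs. Ctrl, with 5 called higher and 7 lower and a median log2 fold change of 0.06, against 0.11 over all genes. Among all genes 14.6% passed on the higher side and 11.8% on the lower. In EAE vs. OVA 44 were tested, with 3 called higher and 3 lower, beside 11% and 9.28% of all genes. By limma 0 were called in either OVA vs. Ctrl comparison or on day 40, where 45 were tested against Ctrl and 43 against OVA. At an unadjusted p below 0.05, 16 and 11 of them differed on day 40, and 7 and 1 of the tested genes did in OVA vs. Ctrl on days 14 and 40. Of all genes, 2423 of 8691 against Ctrl and 1500 of 8598 against OVA had such a limma p on day 40. In OVA vs. Ctrl 821 of 8471 did on day 14 and 272 of 8706 on day 40.

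Among the other ligands and proteins that bind Notch outside the cell, DLL1, the Delta ligand of satellite cells and differentiating myoblasts, went against DLL4. It was 7.66 ± 2.17 RPKM in EAE, 3.27 ± 1.21 RPKM in Ctrl and 3.71 ± 0.34 RPKM in OVA mice (SD, n = 5), with log2 fold changes of 1.24 (SE 0.24, limma adjusted p = 0.00072) and 0.98 (SE 0.24, limma adjusted p = 0.0046). MFAP5, a microfibril protein that can bind Jagged and Notch, was 10.8 ± 2.25 RPKM in EAE, 32.0 ± 5.78 RPKM in Ctrl and 22.4 ± 6.91 RPKM in OVA mice, called lower against both with -1.57 (SE 0.20) and -1.01 (SE 0.20). MFAP2, its paralog, fell by 1.23 on the log2 scale against Ctrl and differed by -0.48 (SE 0.17) against OVA, not called. EGFL7, a secreted endothelial protein that is also in the endothelial marker list, fell by 0.74 against Ctrl and differed by -0.21 (SE 0.17) against OVA, not called. In OVA vs. Ctrl on day 14, MFAP5, MFAP2 and EGFL7 also lay on the lower side. The 4 tested genes of this list had a median log2 fold change of -0.55 there, and 0 were called. A limma p below 0.05 without adjustment was found for 3 of the 4, beside 821 of 8471 of all genes. DLL3, DLK1, DLK2 and DNER were under 3 RPKM and not tested.

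Of the 13 tested genes of receptor cleavage and glycosylation, such as ADAM10, the γ-secretase subunits and the Fringe glycosyltransferases, 0 were called on day 14 by limma, although 6 had an adjusted p below 0.05 against Ctrl with a smaller fold, and 8 and 6 an unadjusted p below 0.05 against Ctrl and OVA. These 6 were PSEN2, APH1A, MFNG and RFNG on the lower side (log2 fold changes -0.53 to -0.42) and FURIN (0.38) and POGLUT1 (0.33) on the higher side. Of all 8771 genes, 2530 were higher and 1665 lower against Ctrl at a limma adjusted p below 0.05 with any fold. The unadjusted p was below 0.05 in 4855 of 8771 genes against Ctrl and in 4155 of 8674 against OVA. Among ubiquitin ligases and adaptors of ligand and receptor traffic, MIB1, which drives ligand endocytosis, rose against Ctrl (log2 fold change 1.20, SE 0.39) and was not called against OVA (0.58, SE 0.39). NEURL3, a ligase of the Neuralized family, fell against Ctrl (-0.97, SE 0.26) and against OVA (-0.96, SE 0.26). DTX3 of the Deltex family (-0.68, SE 0.14) and NUMBL, an adaptor related to the Notch antagonist NUMB (-0.64, SE 0.17), fell against Ctrl. Against OVA DTX3 differed by -0.04 (SE 0.14), not called, and NUMBL by -0.19, not tested.

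Of the nuclear cofactors, 3 of 17 tested were called higher against Ctrl and 1 of 16 against OVA, beside 14.6% and 11% of all genes, and 0 were called lower. KAT2B, an acetyltransferase of the Notch activator complex and of many others, was 37.0 ± 2.54 RPKM in EAE, 18.1 ± 2.79 RPKM in Ctrl and 18.6 ± 2.10 RPKM in OVA mice. Its log2 fold change was 1.04 (SE 0.12, limma adjusted p = 7.1e-06) against Ctrl and 1.00 (SE 0.12, limma adjusted p = 1.4e-05) against OVA. The acetyltransferase EP300 (0.68, SE 0.27) and the corepressor SPEN (0.75, SE 0.28) rose against Ctrl and were not called against OVA. These cofactors serve many transcription factors besides RBPJ.

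Of the other targets, NRARP and HES6 were expressed above 3 RPKM and the remaining 6 of 8 listed genes were not. NRARP, a direct target that feeds back on the Notch complex, was 3.29 ± 0.83 RPKM in EAE, 5.64 ± 0.73 RPKM in Ctrl and 5.16 ± 1.34 RPKM in OVA mice on day 14. It fell by 0.78 on the log2 scale against Ctrl (SE 0.18, limma adjusted p = 0.0026) and by 0.63 against OVA (SE 0.18, limma adjusted p = 0.012). HES6, which opposes HES1 and is made in differentiating myoblasts, rose by 0.68 against OVA (SE 0.24, limma adjusted p = 0.032) and differed by 0.44 (SE 0.24) against Ctrl, not called. By day 40, NRARP was 4.96 ± 1.21 RPKM in EAE and 4.52 ± 0.93 RPKM in Ctrl mice, and DLL1 was 3.25 ± 0.34 RPKM and 3.83 ± 0.78 RPKM, neither called.

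**Figure D4:**
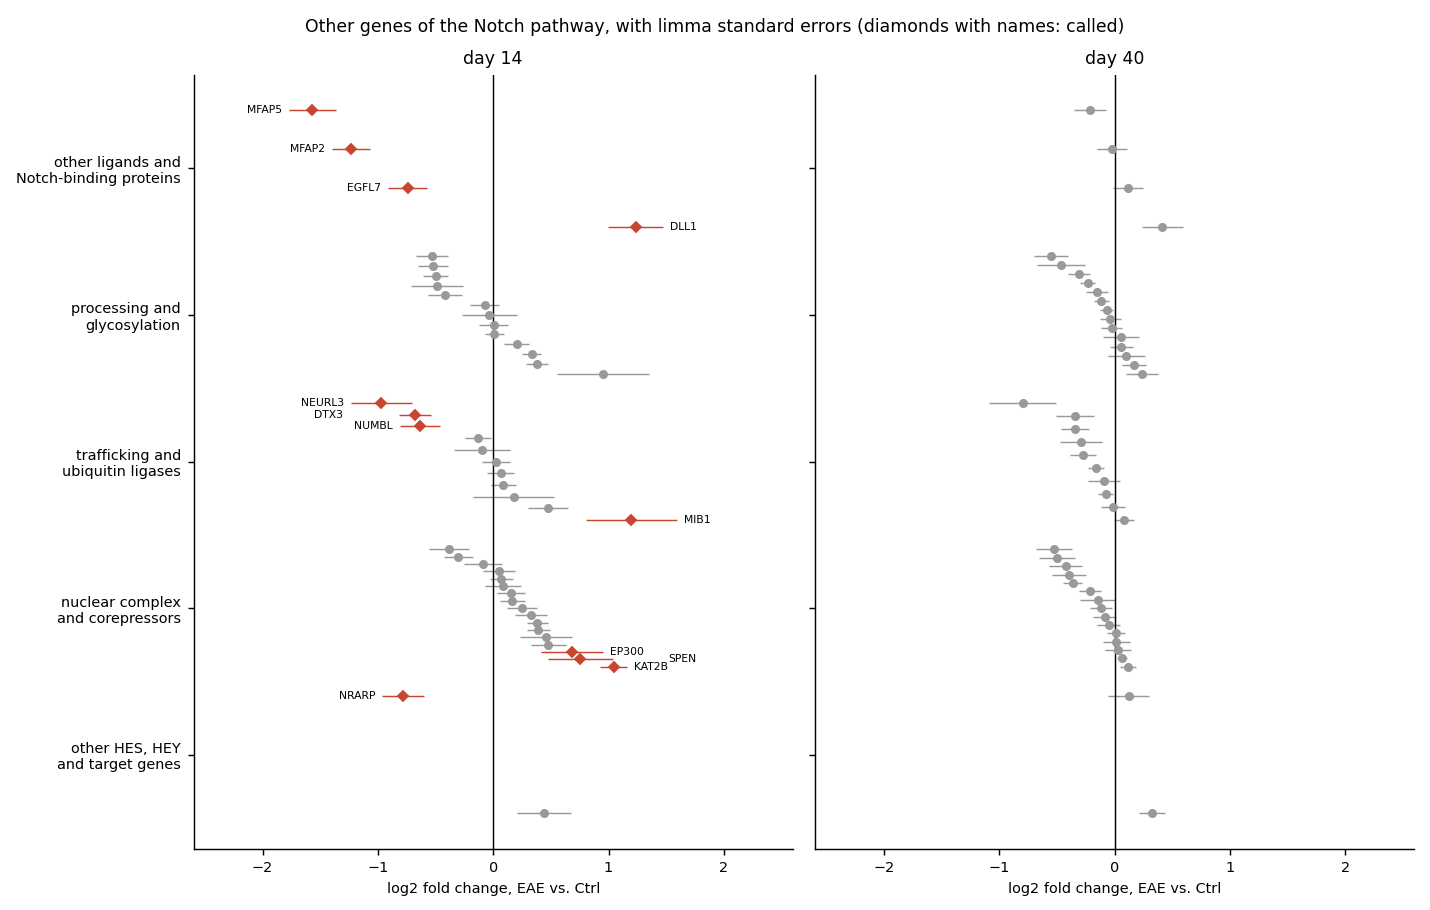
Log2 fold change of EAE vs. Ctrl for the tested genes of 5 other lists of the Notch pathway on days 14 and 40, with limma standard errors; red diamonds with names were called and grey circles were not. On day 14, 5 genes were called higher and 7 lower, and on day 40 none was.

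The genes with the pattern most like each Notch gene were listed by Pearson's r of log2 levels over the 30 mice among 8443 genes, for the 5 genes of the group above 3 RPKM on average. For DLL4 they were KY (r = 0.92), SPARCL1 (0.92) and GNB4 (0.90), and with group means removed r was 0.78, 0.84 and 0.75. For JAG1 they were TPPP (0.91), APLP2 (0.90) and ASB14 (0.89). NOTCH3 was closest to INTS1 (0.90), CDS2 (0.88) and RNF44 (0.86), and JAG2 to SCAF1 (0.86), DPP9 (0.85) and MARK4 (0.84), and in these r was at least 0.78 with group means removed. HES1 was closest to JUNB (0.83), an immediate early gene, KANSL2 (0.82) and 9430038I01RIK (0.80), which fell to 0.68, 0.69 and 0.72 within groups. The points share the library of each mouse, and r is a description.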

How the data were processed

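EDL muscle RNA of 30 mice was measured by RNA-Seq from poly(A) libraries. The authors aligned the reads to mm10 with Subread, counted them over RefSeq transcripts with featureCounts, and computed RPKM. Whether counting used strand is not given in the sources used here. The deposited values are log2 values, log2(RPKM + 1) as the values show. Read this way, reads summed over genes come to 96.4% to 103% of the reads each library was scaled to. The share is 11.5% to 13.7% if the values are read as RPKM. Exon lengths came from another annotation than that of the counts, so these shares are approximate. A value of 0.0001, 25.8% of all, stands for a gene without a read. Values were converted back to RPKM, and reads per gene and depth were estimated from exon lengths of GENCODE M21 transcripts (GRCm38), with 57.3% to 62.3% of low values within 0.05 of whole reads against 10% by spacing alone.

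Log2(RPKM + 0.1) was fitted with limma 3.58.1 in R 4.3.3 (lmFit, then eBayes with a mean-variance trend), 1 model for the 15 mice of each day. The test ran over all genes whose mean passed 3 RPKM in a compared group. Calls needed a p under 0.05 after Benjamini-Hochberg adjustment and a fold over 1.5, the thresholds of the study, whose edgeR test on counts could not be run on these values. On the log2(RPKM + 0.1) scale fold changes of low genes are understated. The change between days was fitted as an interaction over all 30 mice. Replicates are the 5 mice the methods give per group. On values simulated for EAE vs. Ctrl on day 14, the model called 176 of 200 changed genes among 8408, with 8 false calls. The changed genes were drawn only from Ctrl levels above those of every Notch gene of the group except HES1 and JAG2. Noise was drawn independently for each gene. Recovery at the levels of the other Notch genes was not tested.

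Members and lists were chosen with earlier results of these data known. Named genes were all 10 members, every called gene of the other pathway lists up to 6 per list, and, for each member above 3 RPKM on average, the 3 genes with the highest Pearson's r. Endothelial markers are named where called against Ctrl, together with some of those that were not called. One gene of the lists is not reported here and is in none of their counts. Promoters were taken from RefSeq (GRCm38.p6). Alternatives changed the pseudocount, filter, scaling, the mice in the model, the trend, the fold threshold and the pairing, and left out each mouse in turn.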

Additional observations from a re-analysis of the deposited data

Results flagged for a closer look

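In EAE mouse 3 of day 14, NOTCH4 was 2.41 RPKM, and the other 4 EAE mice were at 1.29 to 1.54 RPKM. In Ctrl mouse 1 of day 14, JAG1 was 1.99 RPKM, and the other 4 Ctrl mice were at 2.99 to 3.29 RPKM. In both, the gap to the nearest mouse exceeded 0.71 of the range of the group (0.783 and 0.762). The 10 genes in 6 groups gave 60 such checks, of which chance alone would mark about 3. EAE mouse 3 was also the deepest library. The low value of Ctrl mouse 1 was not particular to JAG1. Within the Ctrl group of day 14 this mouse was lowest in each of the 10 genes except HES1, where it was highest (23.1 RPKM). OVA mouse 1 of day 14 held the same places within its group, with HES1 at 16.6 RPKM. These mice also had the lowest median-of-ratios scaling factors of all mice, 0.897 and 0.913. The cause was not tested. Without Ctrl mouse 1 the JAG1 mean passed 3 RPKM, and JAG1 was called lower in EAE vs. Ctrl on day 14 with a log2 fold change of -0.62.

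The effect of EAE on DLL4 differed between the days, by 0.994 on the log2 scale (SE 0.317) against Ctrl and by 0.911 (SE 0.317) against OVA in the limma interaction, since DLL4 was lower on day 14 and at the level of the controls on day 40. Both comparisons use the same EAE mice.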

How the results depend on the processing

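The number of the 10 Notch genes called in EAE vs. Ctrl on day 40, 1 (HES1), became 0 with a pseudocount of 1, with only the compared groups in the model, with all 30 mice in 1 model and with the replicate block, and 2 with no fold threshold. In EAE vs. OVA on day 40, 1 (HES1) became 0 with no filter, with median-of-ratios scaling, with all 30 mice in 1 model and with the block. The change between days, 1 gene (DLL4), became 3 against Ctrl with no filter, with NOTCH1 and NOTCH2 added on the lower side. It became 2 against either control with median-of-ratios scaling, with NOTCH4 added. On day 14, EAE vs. Ctrl went from 2 to 3 with all 30 mice in 1 model (HES1 added) and EAE vs. OVA from 4 to 3 with a pseudocount of 1 (HEY1 lost). Leaving out 1 mouse gave 1 to 3 called genes in EAE vs. Ctrl and 3 to 5 in EAE vs. OVA on day 14, 0 to 1 in each EAE comparison of day 40, 1 to 2 in the change against Ctrl and 0 to 2 in that against OVA. The other pathway genes called went, with no fold threshold, from 12 to 22 in EAE vs. Ctrl and from 6 to 15 in EAE vs. OVA on day 14, and from 0 to 1 in each on day 40. They went from 0 to 2 in OVA vs. Ctrl on day 14 with all 30 mice, and from 0 to 1 in EAE vs. OVA on day 40 with only the compared groups. With 1 mouse left out they numbered 8 to 13 in EAE vs. Ctrl on day 14, 0 to 5 in EAE vs. Ctrl and 0 to 1 in EAE vs. OVA on day 40. Mice with 1 replicate number did not deviate together throughout. On day 14 the same-number r ran from -0.23 to 0.50 for Ctrl and EAE, and from 0.02 to 0.69 for OVA and EAE. At most 3 of 10 mice of any compared pair of groups correlated best with their own number. The main models therefore do not pair mice by number, and whether a number marks a shared batch was not tested. With the replicate block, calls over all genes fell from 40 to 1 in EAE vs. Ctrl and from 18 to 0 in EAE vs. OVA on day 40, and the calls of the 10 Notch genes in the other 6 comparisons numbered 2, 4, 0, 0, 1 and 1 as before. Of 1520 single-gene fold changes under alternatives, 0 reversed a call, 37 lost one and 19 gained one. The cause of these changes was not tested. The low RPKM of NOTCH1, NOTCH2, JAG1 and HEY1 limits what could be tested.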
